A study of Mus musculus with 2 samples.

Results

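Splanchnic lateral plate mesoderm was taken here as the barcodes with at least 1 UMI of Foxf1 or Fendrr and of at least 3 of 9 genes, namely Foxf1, Fendrr, Colec10, Postn, Nr1h5, Wnt2, Hand1, Gata6 and Gata4. A UMI is 1 counted transcript molecule. Barcodes with at least 3 of the endothelial genes Flt1, Kdr, Ptprb, Emcn and Cdh5, or at least 3 of the cardiac genes Ttn, Myh6, Ryr2 and Tnnt2, were dropped. The rule kept 242 of 28179 barcodes with 200 to 6000 detected genes. Of these, 86 of 15161 came from the wild-type library and 156 of 13018 from the Usb1-null library. These barcodes are called members below. The members were thus chosen by the measured UMIs of the 9 genes, so the levels of those genes are a description.

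The study compared whole mouse embryos at embryonic day 9.5 by droplet single-cell RNA sequencing, with 1 library of wild-type genotype and 1 of a germline Usb1 knockout. Usb1 encodes the nuclease that trims U6, a small RNA of the spliceosome, at its 3′ end. The study's methods place the guide RNAs around exon 2 of Usb1, while a figure legend of the study gives both exons 1 and 2 as removed. No source used here gives the number or sex of the embryos in a library. No p-value was computed, because there was 1 library per group and cells of 1 library are not replicates. Ranges in brackets are 95% intervals that cover counting error only. Genotype, library, depth and the sex of the embryos cannot be told apart in any difference between the libraries: Xist, the RNA that silences an X chromosome in females, had 339 UMIs in the wild-type members and 0 in the Usb1-null members, while Uty of the Y chromosome had 0 and 243. Usb1 itself had 0 UMIs in the members of both libraries. Tags near the 3′ end lie outside the targeted exons and do not check the genotype.

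The lateral plate splits into an outer sheet that lines the body wall and an inner, splanchnic sheet that wraps the gut tube. Splanchnic mesoderm forms the smooth muscle and connective tissue of the gut and lung and contributes to the heart, the septum transversum and the mesenteries. The forkhead factor Foxf1 marks this inner sheet and responds to Hedgehog protein from the gut endoderm, and Fendrr is a long noncoding RNA transcribed away from the Foxf1 promoter region.

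Foxf1 and Fendrr were found together far more often than the frequency of Fendrr in each library. On GRCm38 the annotated starts of Fendrr (chromosome 8, base 121083110, minus strand) and Foxf1 (base 121084386, plus strand) lay 1276 bases apart. In the wild-type library 37 of the 124 barcodes with a Foxf1 UMI also had a Fendrr UMI (29.8%), against 1.84% of all barcodes. In the Usb1-null library the count was 89 of 258 (34.5%), against 3.36% of all barcodes. Among the members, 19 wild-type and 53 Usb1-null barcodes had both, 16 and 31 had Foxf1 alone, and 51 and 72 had Fendrr alone.

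RefSeq promoter windows of GRCm38.p6 were available for 4 of the 9 genes, and the 250 bases before the start are shown for Fendrr, whose gene is the divergent partner of Foxf1, and for Wnt2. They were searched on both strands for the forkhead core GTAAACA. The same was done for the core bound by GATA factors, TGATAA, and for the core bound by GLI factors of the Hedgehog pathway, GACCACCCA, and matches are in capitals. The Fendrr window, chr8:121083111-121083360 on the minus strand, held 1 forkhead match 129 bases before the start. The Wnt2 window, chr6:18030446-18030695 on the minus strand, held 1 GATA match, written on the other strand as TTATCA, 9 bases before the RefSeq start. In the GENCODE M21 annotation Wnt2 starts at base 18030585, inside this window, so by that annotation the match lies within the gene.
Fendrr: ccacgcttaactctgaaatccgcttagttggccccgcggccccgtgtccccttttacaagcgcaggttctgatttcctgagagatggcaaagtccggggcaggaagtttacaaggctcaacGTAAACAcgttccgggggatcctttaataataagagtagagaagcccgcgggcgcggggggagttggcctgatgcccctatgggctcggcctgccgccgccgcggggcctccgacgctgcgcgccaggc
Wnt2: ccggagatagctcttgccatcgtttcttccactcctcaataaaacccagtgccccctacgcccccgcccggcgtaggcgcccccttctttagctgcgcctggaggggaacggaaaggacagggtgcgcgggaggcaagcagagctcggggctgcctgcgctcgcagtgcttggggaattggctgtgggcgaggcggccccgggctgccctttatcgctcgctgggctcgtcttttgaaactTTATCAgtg
Of 32851 promoter windows of this length, 3.17% held the forkhead core, 7.94% the GATA core and 0.225% the GLI core. The window of Nr1h5 held 1 GATA match 64 bases before the start, and both windows of Postn held none of the 3 cores. A match is a description of letters, not a binding site.

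The 9 genes were unevenly detected in the members. Fendrr was the most often seen, in 70 of 86 wild-type members (81.4%) and 125 of 156 Usb1-null members (80.1%), against 1.39% and 2.43% of the other barcodes. Foxf1 was seen in 40.7% and 53.8% of members. The cardiac and endodermal regulator Gata6 was seen in 52.3% and 60.3%, and Gata4 in 39.5% and 48.7%. Colec10, which encodes a secreted collectin, was seen in 45.3% and 34.6%, the matrix protein gene Postn in 30.2% and 23.7%, and the nuclear receptor gene Nr1h5 in 26.7% and 22.4%. Wnt2, a ligand that foregut mesoderm sends to the lung field, was seen in 11.6% and 19.9%, and the lateral plate factor Hand1 in 8.14% and 12.2%. Most of these detections were of few molecules: no member had more than 4 UMIs of Foxf1, and the highest count of any of the 9 genes in a barcode was 16, for Gata4.

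**Figure D1:**
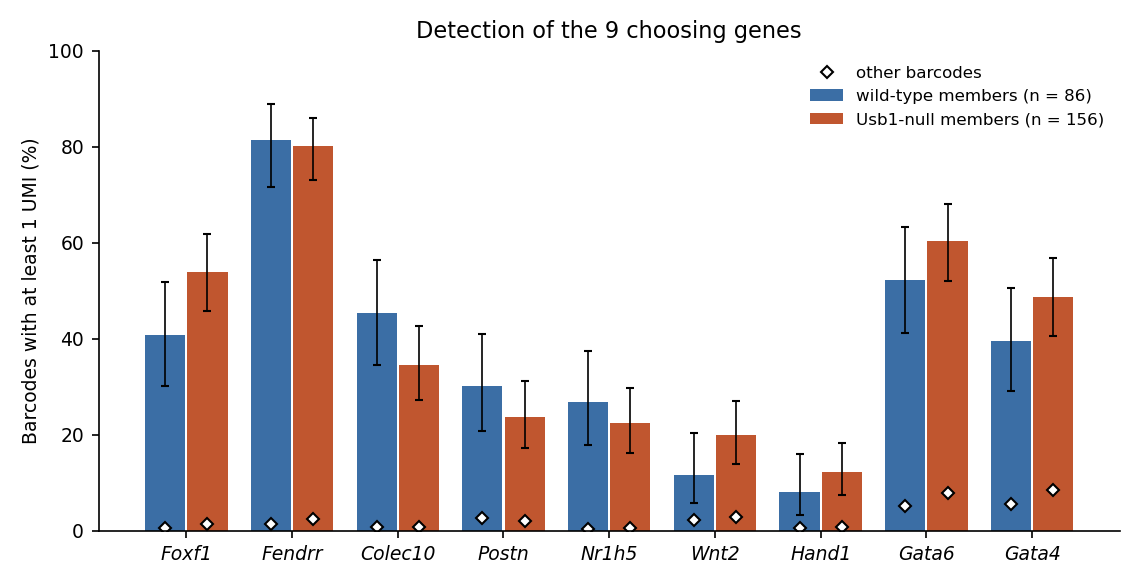
Percent of member barcodes with at least 1 UMI of each of the 9 genes of the rule, for 86 wild-type members (blue) and 156 Usb1-null members (orange), with exact 95% binomial intervals for counting error as bars and the same percent in all other barcodes as diamonds. Fendrr stood at 81.4% and 80.1%, and Hand1 at 8.14% and 12.2%.

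Neural cells should lack Foxf1, and members were left out of the neural barcodes counted here, which removed 0 wild-type and 1 Usb1-null barcode. Barcodes with at least 3 of the neural genes Sox1, Sox2, Sox3, Pax6, Fabp7 and Hes5 showed Foxf1 in 0 of 126 wild-type barcodes (median 1859 UMIs) and in 0.488% of 205 Usb1-null barcodes (median 2717 UMIs). Fendrr was seen in 0.794% and 0% of them. For Gata4 and Gata6 the neural share was 3.17% each in the wild-type library and 2.44% each in the Usb1-null library.

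Only part of each gene's transcripts fell within the members. They held 29.2% of all Foxf1 UMIs of the wild-type library and 35.6% of those of the Usb1-null library, and 26.5% and 33.4% of all Fendrr UMIs. For Postn, Gata4 and Gata6, which other tissues of the embryo also express, the members held between 4.63% and 16.9% of the UMIs. The barcodes just outside the rule were many: with Foxf1 or Fendrr and 2 of the 9 genes there were 98 wild-type and 168 Usb1-null barcodes, against 62 and 95 with exactly 3 genes. Members with 4 genes numbered 18 and 41, and those with 5 or more numbered 6 and 20. A further 104 and 154 barcodes had at least 3 of the 9 genes but neither Foxf1 nor Fendrr.

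The exclusion limits cardiac and endothelial genes in the members, so their low levels there follow from the rule. The summed level of 10 cardiac markers was 625 CPM in the wild-type and 372 CPM in the Usb1-null members, where 10000 CPM is 1% of the UMIs of the summed barcodes, and 19344 and 14692 CPM in barcodes with at least 3 of the 4 cardiac genes. The summed level of 10 endothelial markers was 194 and 127 CPM, against 7363 and 6400 CPM in barcodes with at least 3 of the 5 endothelial genes. The rule did not bar neural markers, which summed to 542 and 569 CPM in the members and to 652 and 571 CPM in the other barcodes. Limb and body wall markers, which mark the neighbouring outer sheet, summed to 247 and 281 CPM in the members, to 306 and 263 CPM in the other barcodes and to 2253 and 1185 CPM in barcodes with Prrx1 and at least 2 further limb genes. Of the white blood cell markers, 5 of 7 were at 0 in the wild-type members and all 7 in the Usb1-null members. They summed to 4 UMIs (23.6 CPM) and 0 UMIs in the members, against 12.1 and 15.9 CPM in the other barcodes. The wild-type members were thus not lower in them. At least 3 markers of another cell type were present in 5 wild-type and 24 Usb1-null members, and Scrublet called 5 and 6 members doublets. No barcode sequence was shared between the members of the libraries, although 61 were shared between the libraries as a whole.

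The share of barcodes that met the rule was higher in the Usb1-null library as deposited, and at equal depth the order changed with the number of UMIs kept. It was 0.567% (0.454 to 0.700) in the wild-type library and 1.20% (1.02 to 1.40) in the Usb1-null library, a ratio of 2.11 (1.61 to 2.78). The libraries differed in UMIs per barcode, with medians of 1640 in wild-type and 3174 in Usb1-null members and of 1242 and 2290 in other barcodes, and a rule that asks for a UMI in 3 genes takes more barcodes of a deeper library. After each barcode was thinned to 1000 UMIs, leaving out 4973 shallower wild-type and 612 shallower Usb1-null barcodes, the rule kept 34 of 10188 wild-type barcodes (0.334%) and 22 of 12406 Usb1-null barcodes (0.177%), a ratio of 0.531 (0.296 to 0.935). Further random draws at the same depth gave ratios of 0.628 (0.362 to 1.08) and 0.821 (0.469 to 1.44). At 1500 UMIs the ratio was 0.715 (0.434 to 1.19) and at 700 UMIs 1.17 (0.588 to 2.35). In 4 of these 5 draws the interval held 1, so no order of the shares was readable beyond counting error.

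**Figure D2:**
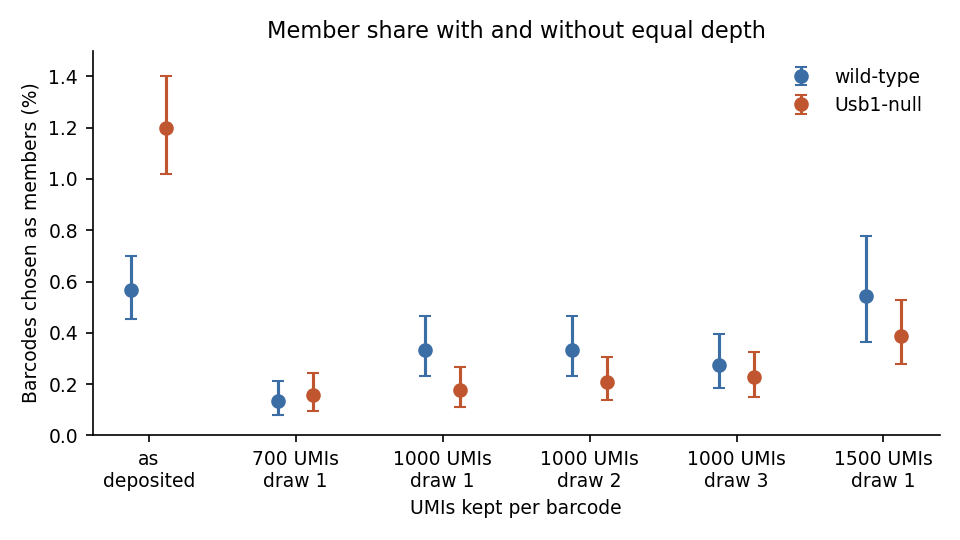
Percent of barcodes chosen as members in the wild-type (blue) and Usb1-null (orange) library, as deposited and after thinning every barcode to 700, 1000 or 1500 UMIs, with exact 95% binomial intervals for counting error. As deposited the Usb1-null share was 2.11 times the wild-type share, and in the 3 draws at 1000 UMIs it was 0.531, 0.628 and 0.821 times that share.

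Outside the 9 genes, Bnc2, Ghr, Zfpm2 and D030025E07Rik were among the genes with the largest folds of members over other barcodes in both libraries. Of 3701 genes with at least 50 UMIs over the members, 109 (2.95%) were past 2-fold higher in the members of both libraries than in the other barcodes of the same library, and 19 (0.513%) were past 2-fold lower. The minimum of UMIs over the members keeps genes that are high there and drops genes that are low, so the balance of these counts is not a result. Because genes that vary with the 9 genes follow from how the members were chosen, these folds are a description. Folds below are of CPM in members over CPM in all other barcodes.

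Among the abundant genes of this group, Bnc2, Ghr and Zfpm2 were each seen in most members. Bnc2, a zinc finger factor of mesenchymal cells, had 1609 CPM in the wild-type and 1249 CPM in the Usb1-null members, 5.39-fold and 5.27-fold over the other barcodes, and was seen in 82.6% and 84.0% of members. Ghr, the growth hormone receptor, had 1656 and 1260 CPM (5.93-fold and 4.59-fold) and was seen in 83.7% and 84.0%. Zfpm2, which encodes the GATA4 partner FOG2, had 1455 and 1347 CPM (5.41-fold and 4.40-fold). Zfpm2 was not particular to the members: barcodes with cardiac genes had 999.7 and 1228 CPM and barcodes with endothelial genes 1337 and 1401 CPM. Bnc2 was shared with the limb-marker barcodes, at 799 and 662 CPM there, and stood at or below 108 CPM in the cardiac, endothelial and neural classes.

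Sntg1, which encodes a syntrophin, was 15.7-fold and 8.04-fold higher, and the adhesion gene Ncam2 7.92-fold and 10.4-fold. The matrix glycoprotein gene Tnc was 5.48-fold and 7.05-fold higher, at 189 and 227 CPM. Prdm6, a PR-domain factor linked to smooth muscle, was 5.85-fold and 4.46-fold higher, and the corepressor gene Runx1t1 4.55-fold and 4.26-fold. The secreted or matrix genes Adamts18 (4.12-fold and 4.47-fold), Svep1 (4.04-fold and 3.86-fold) and Tgfb2 (3.86-fold and 3.70-fold) belonged to the same group. Prdm6, Runx1t1 and Tgfb2 were shared with the cardiac-marker barcodes. Prdm6 had 395 and 295 CPM in the members and 256 and 274 CPM there. Runx1t1 had 825 and 657 CPM against 522 and 467 CPM, and Tgfb2 271 and 274 CPM against 229 and 193 CPM. Ntng1 (3.78-fold and 5.27-fold), which encodes netrin G1, and Dock9 (4.31-fold and 3.72-fold), an activator of the GTPase Cdc42, completed the 15 highest. Dock9 was close to the members' level in endothelial-marker barcodes, at 346 CPM against 330 CPM in the wild-type and 302 against 349 CPM in the Usb1-null library.

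Against single classes of barcodes, the count of genes past 2-fold was lowest for the limb-marker barcodes. Past 2-fold in both libraries were 105 genes higher (2.84%) and 18 lower (0.486%) against limb-marker barcodes, and 202 higher (5.46%) and 74 lower (2%) against cardiac-marker barcodes. Against endothelial-marker barcodes they were 284 (7.67%) and 102 (2.76%), and against neural-marker barcodes 222 (6%) and 47 (1.27%). These classes differ in their number of barcodes and UMIs, so their counts differ in precision. Prrx1, the gene that defines the limb-marker class, had 47.1 and 60.8 CPM in the members and 1129 and 611 CPM there.

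Some genes with at least 100 UMIs over the members were lower there than in the other barcodes of both libraries. Fgf14, an intracellular FGF of neurons, stood at 0.212 and 0.327 of its level in the other barcodes, the atypical cadherin gene Fat3 at 0.270 and 0.359, and Cdh6 at 0.407 and 0.405. Lef1, a transcriptional effector of Wnt signalling, stood at 0.467 and 0.511, and the glucose transporter gene Slc2a3 at 0.375 and 0.442.

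**Figure D3:**
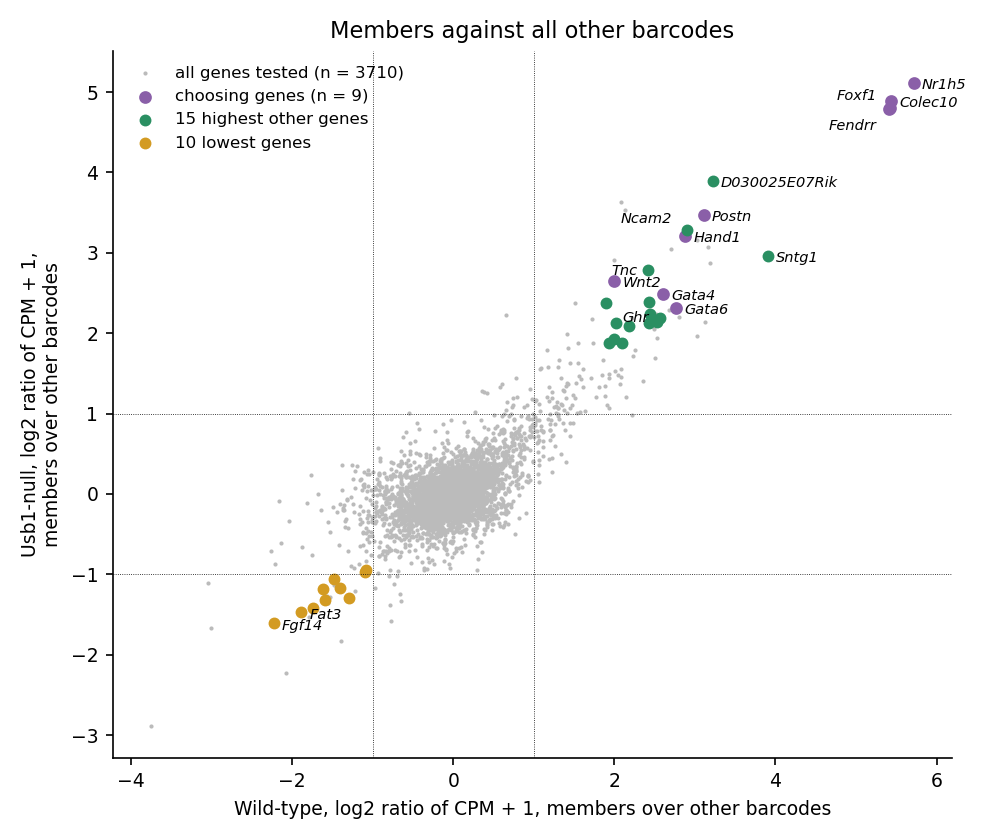
Log2 ratio of CPM plus 1 in members over all other barcodes, wild-type on the horizontal and Usb1-null on the vertical axis, for 3710 genes with at least 50 UMIs over the members; dotted lines mark 2-fold, purple points the 9 genes of the rule, green points the 15 highest and yellow points the 10 lowest of the other genes with at least 100 UMIs. The green genes lay past 2-fold higher in both libraries. By the lower ratio of the 2 libraries they were led by D030025E07Rik, at 9.49-fold and 15.2-fold.

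Genes outside the rule with at least 100 UMIs over the members were ranked by the lower ratio of the 2 libraries. The leading gene was D030025E07Rik, a long noncoding RNA also named Playrr. It lies on chromosome 3 (bases 128117015 to 128231606, minus strand, GRCm38). Playrr is known from the right side of the dorsal mesentery. It had 73 UMIs (430 CPM) in the wild-type and 337 UMIs (603 CPM) in the Usb1-null members, 9.49-fold and 15.2-fold over the other barcodes, and at most 90.8 CPM in the limb, cardiac, endothelial and neural classes of either library.

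The Hedgehog targets Ptch1, Hhip and Gli1 were higher in the members than in the other barcodes, and the ligands were at or near 0. Ptch1, which encodes the Hedgehog receptor and is itself switched on by the signal, had 1255 and 1505 CPM, 2.70-fold and 2.57-fold over the other barcodes, and was seen in 74.4% and 89.1% of members. In the limb-marker barcodes it had 197 and 280 CPM. Hhip, a Hedgehog-binding protein and target, was 5.57-fold and 4.84-fold higher, and Gli1, a further target, had 70.7 and 64.4 CPM (3.20-fold and 2.11-fold). Shh and Ihh each had 0 and 2 UMIs, and Dhh was at 0 in both. Among the 8 genes of this 14-gene list with at least 50 UMIs, Ptch1 and Hhip were past 2-fold higher than the other barcodes in both libraries, against 2.95% of all genes. The median log2 ratio over the 8 genes was -0.08 and 0.04, and none was past 2-fold between the libraries. The co-receptor genes Boc (53.03 and 87.7 CPM) and Cdon (147 and 102 CPM) lay below the other barcodes, at 0.371 and 0.644 and at 0.602 and 0.459 of their level.

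In the BMP pathway the ligand gene Bmp4 was past 2-fold higher in the members of both libraries, at 2.53-fold and 3.27-fold. It was 1 of 14 genes with at least 50 UMIs, a share that is not read as a result beside the 2.95% of all genes. Bmp5 had 165 and 172 CPM, 2.00-fold and 1.80-fold over the other barcodes, and the receptor gene Bmpr1b 448 and 544 CPM, 1.73-fold and 2.31-fold. The feedback inhibitors Smad6 (2.03-fold and 1.95-fold) and Smad7 (1.58-fold and 2.07-fold) did not pass 2-fold in both libraries. The antagonists Nog and Chrd were at 0 in the wild-type members, where 1 UMI is worth 5.89 CPM. Both were detected in the deeper Usb1-null members. Of 12 Wnt pathway genes, 3 FGF pathway genes and 1 retinoic acid pathway gene with at least 50 UMIs, none was past 2-fold from the other barcodes in both libraries. Fgf10, a ligand of lung and limb mesenchyme, had 106 and 96.6 CPM, 1.87-fold and 1.64-fold over the other barcodes.

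Several collagens were among the genes higher in the members. Of 20 matrix genes with at least 50 UMIs, 6 were past 2-fold higher than in the other barcodes of both libraries, against 2.95% of all genes tested. The minimum of UMIs leaves out genes low in the members, such as the cartilage collagen Col2a1, which stood at 0.562 and 0.288 of its level in the other barcodes with 9 and 13 UMIs. Col3a1 had 648 and 370 CPM (4.31-fold and 3.67-fold), and Col5a2 330 and 379 CPM (2.86-fold and 5.25-fold). Col1a1 had 206 and 98.4 CPM, and Col1a2, Tnc and Lum were the remaining genes. Fn1 (1.68-fold and 1.53-fold) and Vcan (1.29-fold and 1.24-fold) were nearer to the rest of the embryo. Of the 11 lateral plate factors with at least 50 UMIs, 5 were past 2-fold higher in both libraries, with Zfpm2, Tbx20, Tbx5 and Foxp2 among them. The homeobox gene Meis2 (1.36-fold and 1.22-fold), which many tissues express, was not.

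Few smooth muscle genes had many UMIs in the members. Of 13 genes of the contractile apparatus and its regulators, Tpm1 and Cald1 had at least 50 UMIs over the members. Summed over the 13 genes, the level was 1267 and 633 CPM in the members, against 878 and 654 CPM in the other barcodes. Acta2, the smooth muscle actin gene, had 13 and 11 UMIs. Tagln, Myh11 and Cnn1 had no UMI in the Usb1-null members, which allows at most 6.601 CPM for each. They did have UMIs in the wild-type members, where only Srf of the list was at 0.

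Lists of genes of particular regions were each met, by 2 genes or more, in a minority of the members. At least 2 genes of a 12-gene list for the second heart field, the source of late-added heart muscle, were present in 16 wild-type members (18.6%, 11.03 to 28.4) and 61 Usb1-null members (39.1%, 31.4 to 47.2), against 8.19% and 15.4% of the other barcodes. Summed over this list, the level was 625 and 655 CPM in the members. It was 1975 and 2350 CPM in cardiac-marker and 1045 and 895 CPM in limb-marker barcodes. For a list of the septum transversum and proepicardium, the source of liver mesenchyme and heart covering, the counts of members were 12 (13.95%) and 25 (16.0%), against 1.91% and 3.31% of the other barcodes. For the gut mesenchyme list they were 2 (2.33%) and 9 (5.77%) members, against 0.133% and 0.327% of the other barcodes. For the allantois and caudal list they were 1 (1.16%) and 4 (2.56%), against 0.0332% and 0.249%. After thinning to 1000 UMIs, 2 of 34 wild-type and 3 of 22 Usb1-null members had at least 2 genes of the second heart field list, and none had 2 of the septum transversum list.

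Single regional factors were higher in the members than in the other barcodes. Tbx20, a T-box factor of the heart field, was 3.87-fold and 2.75-fold higher than in the other barcodes, Tbx5 2.53-fold and 3.04-fold, and Isl1 2.19-fold and 2.18-fold. Tbx20 and Tbx5 were not particular to the members. Tbx20 had 247 and 204 CPM in the members and 722 and 951 CPM in cardiac-marker barcodes. Tbx5 had 58.9 and 94.8 CPM in the members, 300 and 229 CPM in limb-marker and 179 and 255 CPM in cardiac-marker barcodes. Wt1, a factor of the proepicardium and other coelomic linings, had 53.03 and 39.4 CPM, 3.50-fold and 3.06-fold over the other barcodes. Barx1, the stomach mesenchyme factor, had 3 UMIs in the wild-type and 18 UMIs in the Usb1-null members, from 3.49% and 7.05% of members.

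Hox genes, whose numbered paralogue groups are switched on in order from front to back along the trunk, gave the members a range of positions. Of the wild-type members, 36 (41.9%) had no Hox UMI, 34 (39.5%) had Hox genes of groups 1 to 5 only, and 16 (18.6%, 11.03 to 28.4) had a gene of groups 6 to 13. Of the Usb1-null members the counts were 31 (19.9%), 78 (50%) and 47 (30.1%, 23.1 to 37.98). In the other barcodes, whose median depth was lower, the shares were 59.2%, 25.6% and 15.2% in the wild-type library. They were 47.4%, 33.1% and 19.5% in the Usb1-null library. For groups 6 to 13 the interval of the wild-type members held the share of the other barcodes, so this range is not particular to the members. The share without a Hox UMI depends on depth, and after thinning it was 58.8% and 77.3%.

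The summed level of each Hox paralogue group was set beside that of the other barcodes. Group 3 had 236 and 254 CPM against 261 and 303 CPM there, and group 4 had 165 and 179 CPM against 174 and 153 CPM. Group 2 had 41.2 CPM and 76.9 CPM (55.7 to 103.6), against 39.2 and 53.7 CPM. Group 10 had 11.8 CPM (1.43 to 42.6) and 10.7 CPM (3.94 to 23.4), from 2 and 6 UMIs, against 2.04 and 2.19 CPM. Group 9 had 82.5 and 73.4 CPM. Groups 12 and 13 had 0 UMIs in the members of both libraries, which allows at most 21.7 CPM in the wild-type and 6.601 CPM in the Usb1-null members. Hoxb3 had 118 and 129 CPM and Hoxa9 53.03 and 41.2 CPM. For all 9 Hox genes with at least 20 UMIs, the interval of the ratio between the libraries held 1.

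Members with Hox genes of groups 6 to 13 differed from those with groups 1 to 5 only in few genes. With 20 CPM added to each level, 2 of 1874 non-Hox genes (0.107%) were past 2-fold higher in both libraries and 11 (0.587%) past 2-fold lower. The higher genes were Zbtb16, a zinc finger factor known from limb and axial patterning, at 232 against 74.3 CPM in the wild-type and 312 against 89.4 CPM in the Usb1-null library, and the actin-binding gene Svil. Gata4 was among the 11 lower genes, but it is a gene of the rule, so its level is a description. It had 2 UMIs against 40 UMIs in the wild-type and 19 against 151 in the Usb1-null library. Its partner Zfpm2, which the rule did not use, had 348 against 2110 CPM and 513 against 1733 CPM. Unc5c, a netrin receptor gene, had 649 against 1515 CPM and 452 against 1413 CPM. The levels of Foxf1 and Fendrr are a description too, because the rule asks each member for a UMI of at least 1 of them. Foxf1 had 209 against 282 CPM and 190 against 186 CPM. The caudal group held 16 and 47 members, so each level rests on few barcodes.

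Members can be split by which genes of the rule they held, which describes the choice of members and is no test. Members with Colec10 or Nr1h5 and neither Gata4 nor Wnt2 numbered 32 in the wild-type and 48 in the Usb1-null library, and members with Gata4 or Wnt2 and neither Colec10 nor Nr1h5 numbered 26 and 67. Members with a gene of each side numbered 15 and 18, and 28 and 41 members in all, with both or neither, were left out. Of the Colec10 members, 11 of 39 and 10 of 54 also had Gata4. The sides were drawn after the values were seen. A Hox gene of groups 6 to 13 was present in 21.9% and 47.9% of the Colec10 or Nr1h5 side and in 7.69% and 11.9% of the Gata4 or Wnt2 side. Median depth was 1640 and 3299 UMIs on the former side and 1774 and 2871 UMIs on the latter.

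Of 1868 genes with at least 100 UMIs over the members, 24 (1.28%) were past 2-fold higher on the Gata4 or Wnt2 side in both libraries and 17 (0.910%) past 2-fold higher on the Colec10 or Nr1h5 side. In the wild-type library alone 240 genes were past 2-fold and in the Usb1-null library 88, of which 41 were past it the same way in both and 2 in opposite ways. Across genes, which are not independent replicates, the log2 ratios of the libraries had a Pearson r of 0.31. On the Gata4 or Wnt2 side, Zfpm2 had 1841 against 521 CPM in the wild-type and 1555 against 622 CPM in the Usb1-null library. Erbb4, a neuregulin receptor gene, had 594 against 122 CPM and 591 against 134 CPM. Ryr2, the cardiac calcium channel gene, had 805 against 91.9 CPM and 488 against 64.0 CPM. Tafa1 (403 against 0 CPM and 295 against 40.7 CPM) and Sgcd (805 against 230 CPM and 531 against 151 CPM), which encodes a sarcoglycan of muscle membranes, were on the same side. Ryr2 belonged to the 4 cardiac genes of the exclusion, of which members could hold at most 2.

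Nrp2 was among the genes higher on the Colec10 or Nr1h5 side. Nrp2, a receptor for semaphorins and VEGF-C, had 750 against 173 CPM and 645 against 128 CPM. Col3a1 had 1087 against 288 CPM and 645 against 231 CPM, and Col23a1 965 against 288 CPM and 971 against 330 CPM. Cped1 had 383 against 76.7 CPM and 355 against 55.7 CPM, and the transporter gene Abcg2 475 against 153 CPM and 302 against 89.9 CPM. The median over 12 matrix genes was -0.48 and -0.72 on the log2 scale of the ratio, Gata4 or Wnt2 side over Colec10 or Nr1h5 side, against -0.07 and -0.002 over all genes. Matrix genes did not all go this way: Tnc had 0.68 and 0.14 on this scale, and Col4a1 1.26 and -0.88. Ptch1 was close on the 2 sides, at 1093 against 1577 CPM and 1525 against 1773 CPM.

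Some factors that the split did not use differed by side in how many members held them, and others did not in both libraries. Tbx5 was present in 7 of 26 wild-type and 24 of 67 Usb1-null members of the Gata4 or Wnt2 side (26.9% and 35.8%), and in 2 of 32 and 0 of 48 of the Colec10 or Nr1h5 side. Barx1 was present in 2 and 8 members of the Gata4 or Wnt2 side and in 0 of the other. Tbx20 was present in 38.5% of the Gata4 or Wnt2 side against 12.5% in the wild-type library. In the Usb1-null library it was in 31.3% against 33.3%. Isl1 was in 23.1% against 0% and in 10.4% against 8.33%. Playrr was present on both sides, in 43.8% and 60.4% of the Colec10 or Nr1h5 side and 42.3% and 65.7% of the Gata4 or Wnt2 side. Bnc2 was present in 96.9% and 93.8% of the Colec10 or Nr1h5 side and in 69.2% and 76.1% of the Gata4 or Wnt2 side.

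**Figure D4:**
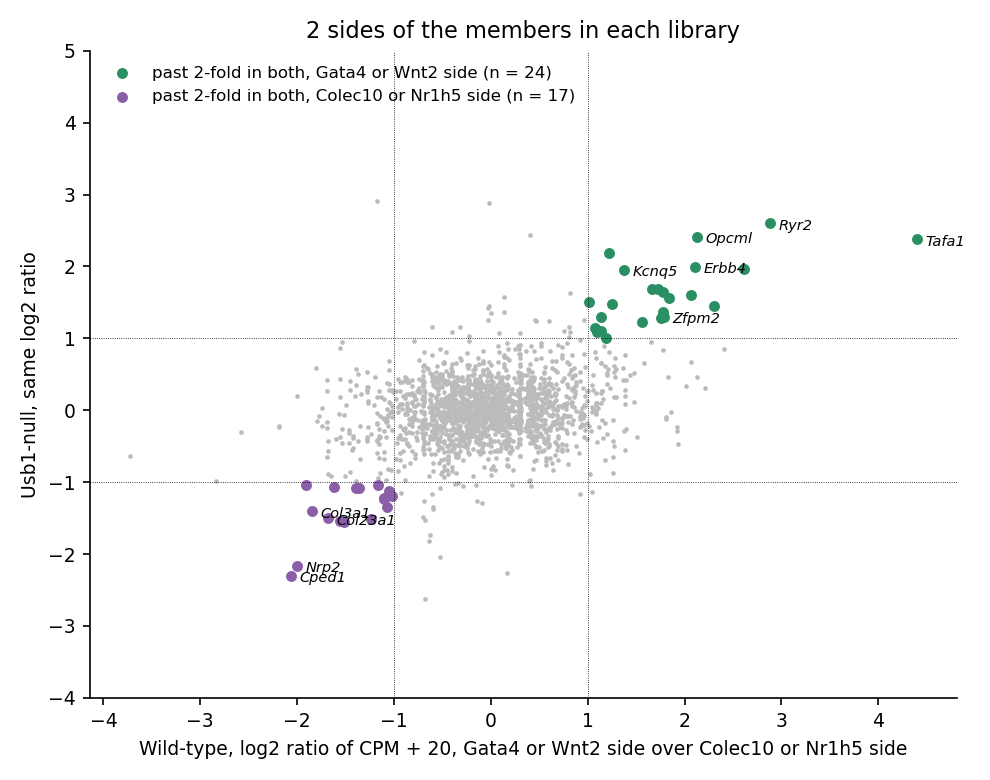
Log2 ratio of CPM plus 20, members with Gata4 or Wnt2 over members with Colec10 or Nr1h5, wild-type on the horizontal and Usb1-null on the vertical axis, for 1868 genes; dotted lines mark 2-fold. The 24 green genes, with Ryr2 and Erbb4 among them, and the 17 purple genes, with Nrp2 and Cped1 among them, were past 2-fold the same way in both libraries.

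Between the libraries, most genes of the members had similar levels. Of 3710 genes with at least 50 UMIs, 129 (3.48%) were past 2-fold higher and 55 (1.48%) past 2-fold lower in the Usb1-null than in the wild-type members. In the other barcodes of the same libraries, which are far more numerous, 0.404% and 0.216% of the same genes were. The median log2 ratio over all genes was 0.03, and 52.7% were above 0. These figures compare 2 libraries, not genotypes.

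Hypoxia genes were the list with the highest median, in the members and in the rest of the embryo. All 8 hypoxia genes with at least 50 UMIs were above 0, against 52.7% of all genes. Of the 8, 2 were past 2-fold higher, against 3.48% of all genes. Their median log2 ratio was 0.88 in the members and 0.47 in the other barcodes. Bnip3, a mitophagy gene under hypoxic control, had 4 UMIs (23.6 CPM) in the wild-type and 47 UMIs (84.1 CPM) in the Usb1-null members, a ratio of 3.57 (1.30 to 13.6), against 2.49 in the other barcodes. Its log2 ratio turned to -4.93 after thinning to 1000 UMIs, when few UMIs remained. The collagen hydroxylase gene P4ha1 had 194 and 367 CPM, a ratio of 1.89 (1.30 to 2.81), and the pyruvate dehydrogenase kinase gene Pdk1 112 and 188 CPM, a ratio of 1.68 (1.02 to 2.90). P4ha2, of the same family as P4ha1, had fewer than 50 UMIs and was not among the 8. It went the other way in the members, with 76.6 and 55.5 CPM, against 27.4 and 37.7 CPM in the other barcodes. Summed over the list, the level was 925 and 1578 CPM, a ratio of 1.71 (1.44 to 2.03), against 1.39 in the other barcodes.

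Glycolysis genes were uneven. Hk2, a hexokinase gene, had 106 and 326 CPM, a ratio of 3.07 (1.89 to 5.30), against 1.71 in the other barcodes. Pgk1 had 53.03 and 156 CPM, a ratio of 2.94 (1.48 to 6.63), against 1.26 there. Pkm had 277 and 469 CPM, a ratio of 1.69 (1.24 to 2.36). Slc2a1 (342 and 308 CPM) and Tpi1 (189 and 132 CPM) lay on the other side of 1. Of 12 genes tested, 7 were above 0 on the log2 scale, which is near the 52.7% of all genes and not read as a result. Past 2-fold higher were 2, against 3.48% of all genes. The median was 0.24 in the members and 0.02 in the other barcodes.

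For p53 targets the median of the 4 genes with at least 50 UMIs was 0.28, against 0.14 in the other barcodes, with none past 2-fold. Of the 4, 2 were above 0 and 2 below, near the 52.7% of all genes above 0. Sesn1 had 153 and 109 CPM in the members, and 91.6 and 81.2 CPM in the other barcodes. Summed over the list, the level was 601 and 811 CPM, a ratio of 1.35 (1.09 to 1.69), against 1.21 in the other barcodes. Eda2r, a p53-responsive receptor gene with fewer UMIs, had 0 UMIs in the wild-type and 30 UMIs in the Usb1-null members, 3.04-fold higher against a floor of 3 counts. It was not particular to the members, with 7.65 and 30.1 CPM in the other barcodes. Mdm2, which p53 induces and which restrains it, had 82.5 and 78.7 CPM.

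Genes of the pathways and factors above lay near equal levels in the libraries. The median log2 ratio was -0.08 over 8 Hedgehog genes, -0.05 over 14 BMP genes, 0.20 over 12 Wnt genes and -0.09 over 11 lateral plate factors. Ptch1 had a ratio of 1.20 (1.03 to 1.40), Bnc2 of 0.776 (0.674 to 0.896) and Zfpm2 of 0.926 (0.801 to 1.07). Of the 12 Wnt genes with at least 50 UMIs, the receptor gene Fzd7 was past 2-fold, with 5 and 47 UMIs, which is not read as a result beside the 3.48% of all genes. With 41 UMIs and so outside that count, Dkk2, a secreted Wnt modulator, had 112 and 39.4 CPM, a ratio of 0.352 (0.182 to 0.687).

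Single matrix and contractile genes differed in direction between the libraries. Col3a1 had a ratio of 0.572 (0.451 to 0.727), Col1a1 of 0.477 (0.307 to 0.751) and Tpm1 of 0.396 (0.299 to 0.526), while Vcan had 1.04 (0.840 to 1.30) and Col5a2 1.15 (0.853 to 1.57). Mylk, the kinase of smooth muscle myosin, had 1.09 (0.391 to 3.77) with 5 and 18 UMIs. Over 20 matrix genes the median was -0.11, against -0.12 in the other barcodes. Acta2 had a ratio of 0.257 (0.104 to 0.622), against 0.521 in the other barcodes. Summed over 13 smooth muscle genes, the level was 1267 and 633 CPM, a ratio of 0.500 (0.421 to 0.595), against 0.744 in the other barcodes. The summed level of the 10 cardiac markers had a ratio of 0.596 (0.469 to 0.760), against 0.790 there, and its part in the smooth muscle value was not tested.

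Some of the genes of largest ratio had a like ratio in the other barcodes, and some did not. AY036118, which overlaps ribosomal RNA sequence and so may take its reads, had 819 and 4268 CPM, a ratio of 5.21 (4.39 to 6.23), against 5.15 in the other barcodes. Gm42418, of the same kind, had a ratio of 4.93 and 4.67, Cmss1 of 3.13 and 3.19, and Lars2 of 3.34 and 4.17. Kdm7a, a histone demethylase gene (53.03 and 186 CPM), had a ratio of 3.51 (1.78 to 7.89) in the members and 1.34 in the other barcodes. Hs6st3, a heparan sulfate transferase gene, had 2.87 (1.54 to 5.93) and 0.966, and the channel gene Asic2 had 2.94 (1.62 to 5.85) and 1.16. Asic2 was also past 2-fold higher on the Gata4 or Wnt2 side, which held 30.2% of wild-type and 42.9% of Usb1-null members, and the part of that makeup in its ratio was not tested.

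Mitochondrial transcripts were lower in the Usb1-null than in the wild-type members. Of 9 mitochondrially encoded genes tested, 8 were past 2-fold lower, against 1.48% of all genes. Among them was mt-Co1 with 689 and 222 CPM, a ratio of 0.322 (0.248 to 0.418), against 0.415 in the other barcodes. Mitochondrially encoded genes made up 0.536% of the wild-type and 0.201% of the Usb1-null member UMIs, and 0.435% and 0.191% in the other barcodes. Ribosomal protein genes made up 2.23% and 1.56%, against 2.60% and 1.82%. Tmem108 was lower in the members at 1338 and 594 CPM, a ratio of 0.444 (0.374 to 0.528), against 0.719 in the other barcodes.

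**Figure D5:**
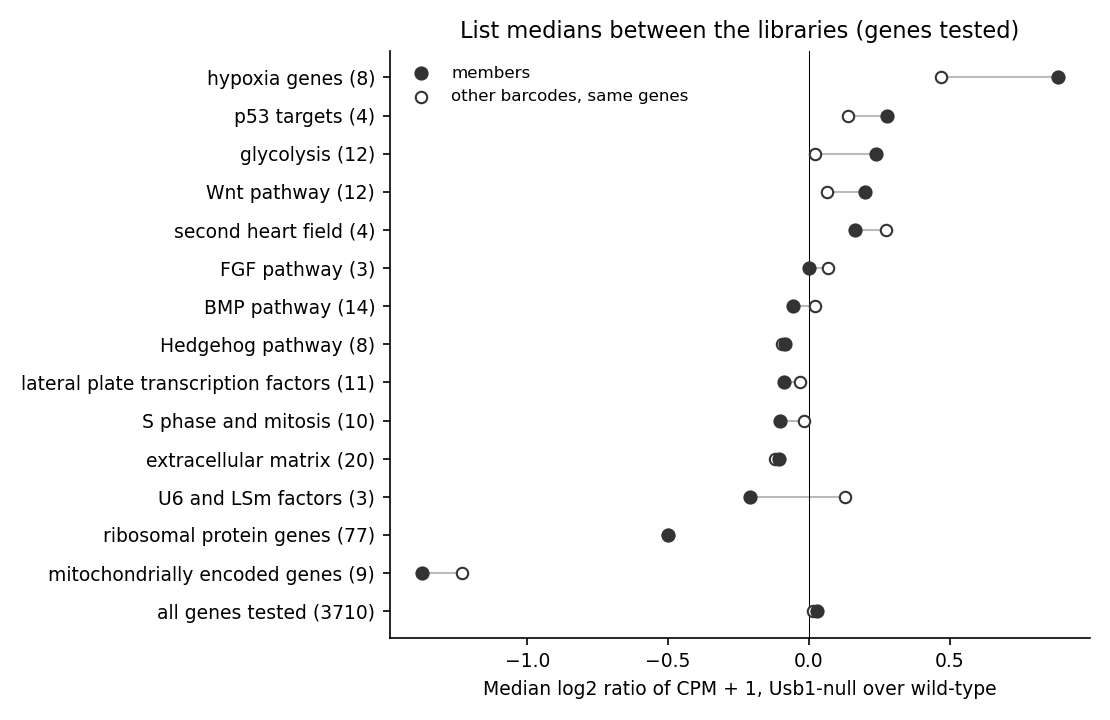
Median log2 ratio of CPM plus 1, Usb1-null over wild-type, for each gene list with at least 3 genes of 50 or more UMIs, with the number of genes tested in brackets; filled points are the members and open points the other barcodes over the same genes. Hypoxia genes stood highest at 0.88 and 0.47, mitochondrially encoded genes lowest at -1.38 and -1.23, and all genes at 0.03 and 0.01.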

How the data were processed

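The authors deposited UMI counts, not normalised, as 1 gene-by-barcode matrix for each library. The matrix header and the study's methods name Cell Ranger 6.1.2, and the submitters' processing notes list Cell Ranger 2.1.1 and mm10. The deposited barcodes all held at least 500 UMIs, 21751961 in total in the wild-type and 33775852 in the Usb1-null library. No source used here says whether intronic reads were counted, and the labels name nuclear RNA while the protocol describes whole cells.

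The counts of the members were summed per library and scaled to CPM. Genes were compared as log2 ratios with 1 CPM added (20 CPM within the members), called where past 2-fold. Levels have exact Poisson intervals, shares Clopper-Pearson intervals and ratios exact binomial intervals, all at 95%. A fold against 0 used a floor of 3 counts per library. The mitochondrial limit of the study, 30%, removed no member. Doublets were called with Scrublet in Scanpy 1.11.5 at an expected rate of 10% and kept, other tools were NumPy 2.4.6, SciPy 1.17.1 and Matplotlib 3.10.9, and the ratios were tested on simulated counts. Coordinates are from GENCODE M21 (32158 of 32285 gene identifiers).

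Named genes were the genes of the rule and of the exclusion, per list up to 5 genes of most UMIs and the extremes of ratio among those with at least 20 UMIs, the 10 highest and 10 lowest ratios between libraries and the 15 highest members-over-others ratios among genes with at least 100 UMIs, genes of X inactivation and of the Y chromosome given apart, Usb1, Tut1 and Hox genes with at least 20 UMIs. Other named genes (the lowest in members, those of the sides) were chosen after their values were seen. The members and lists were chosen with earlier results of these data known. Some genes are not reported here.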

Additional observations from a re-analysis of the deposited data

How the results depend on the processing

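The member share (0.567% and 1.20%, difference 0.631 percentage points) depended on depth and on the rule. Thinned to 1000 UMIs the wild-type and Usb1-null shares were 0.334% and 0.177% (difference -0.156), with further draws giving 0.334% and 0.210% (-0.124) and 0.275% and 0.226% (-0.0491). At 1500 UMIs the Usb1-null share was 0.388% (difference -0.154), and at 700 UMIs the shares were 0.133% and 0.156% (0.0229). With at least 4 of the genes they were 0.158% and 0.469% (0.310), with at least 2 they were 1.21% and 2.49% (1.28), and without Gata4 and Gata6 among the genes 0.270% and 0.530% (0.260). Among barcodes with at least 1000 UMIs, not thinned, the wild-type share was 0.766%. The depths of 700 and 1500 UMIs, the further draws, the unthinned share and the omission of Gata4 and Gata6 were chosen after seeing the data, as was leaving out members with at least 3 markers of another cell type, which kept the gene counts within 1.5 times. Leaving out doublets, or dropping no barcode for other tissues, kept the order.

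Gene counts between the libraries (129 higher, 55 lower) were 4638 and 2215 with no minimum of UMIs, 7 and 9 with at least 200 UMIs, and 4 and 9 of 77 genes after thinning to 1000 UMIs, when few UMIs remained. The higher share of these counts was 70.1%, 43.8% with at least 200 UMIs, 30.8% after thinning and 65.2% with the median ratio set to 0. Counts of members against other barcodes (109 and 19) were 12 and 0 after thinning, and the lower count was 4 with at least 4 genes. After thinning, the regional shares were 0% for the septum transversum in both libraries, 5.88% and 13.6% for the second heart field, 0% for gut mesenchyme in the wild-type and 0% for the allantois in the Usb1-null library. The median of lateral plate factors (-0.0872) turned to 0.0558 with no minimum, 0.085 after thinning and 0.185 with at least 4 genes. Single genes turned sign in 4 cases: Bnip3 (1.79 to -4.93), Hoxb2 (1.33 to -5.90) and Col2a1 (-1.16 to 0.611) after thinning, and Tnnt2 (-2.28 to 3.698) with at least 4 genes. The cause was not tested. Of the other values of single genes, 1376 moved by less than the counting error and 121 by more. The former include 151 values with no minimum of UMIs and 151 with at least 200 UMIs, which could not move. After thinning alone, 59 moved by less, 81 by more and 3 turned sign. No paired analysis was possible because each group had 1 library, and no replicate could be left out. Depth limits the wild-type members most, where 1 UMI is worth 5.89 CPM, against 1.79 CPM in the Usb1-null members.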

Other observations

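Imprinted genes were among those higher in the members, an observation made after their values were seen. Peg3 and Usp29, neighbours in 1 imprinted cluster, had log2 ratios of CPM plus 1 in members over other barcodes of 1.45 and 1.22 in the wild-type library and of 1.07 and 1.27 in the Usb1-null library. Zim1 of the same cluster had 1.63 and 1.03, and Plagl1, a paternally expressed zinc finger gene, 2.503 and 1.70. Igf2 (0.80 and 0.77), H19 (0.82 and 0.79) and Meg3 (0.99 and 1.00) were nearer to 2-fold from below, and Grb10 (-0.04 and 0.01) and Mest (-0.21 and -0.18) were not higher.

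Several ligand, receptor and basement membrane genes, picked after their values were seen, were also past 2-fold higher in the members of both libraries. On the same log2 scale, Angpt1, the ligand of the endothelial receptor Tie2, had 1.26 and 1.08, and Kitl, the Kit ligand, 1.34 and 1.44. Pdgfra, a growth factor receptor of mesenchyme, had 1.37 and 1.29. The basement membrane genes Frem1 (1.85 and 1.66) and Fras1 (1.48 and 1.11) and the guidance receptor gene Robo2 (1.73 and 1.88) were past 2-fold as well.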
